A study of Homo sapiens with 33 samples.

Results

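The genes described here are the well-expressed members of the numbered ZNF family, the human zinc finger genes whose symbol is ZNF followed by a number alone. A gene was taken when its mean over the 4 control libraries of the inhibitor experiment was at least 10 CPM, for which each count was divided by the sum of its library and scaled in the usual way. Of 478 such symbols among 59428 entries, 270 passed and 208 did not. The values just outside the limit were 9.848 CPM for ZNF14 and 9.892 CPM for ZNF846, and the values just inside were 10.03 CPM for ZNF461 and 10.12 CPM for ZNF432. The genes were thus chosen by their control levels, which are given as a description. Each comparison against control also rests on these 4 libraries, whereas the comparisons of treated libraries with each other and the knockout libraries do not.

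Most ZNF proteins carry C2H2 zinc fingers, loops of about the same length that each hold a zinc ion with a pair of cysteines and a pair of histidines, and arrays of them read DNA sequence. A large branch also carries a KRAB domain, which recruits TRIM28 (KAP1) and through it the histone methyltransferase SETDB1, and many of these proteins silence transposable elements. The genes of that branch arose by repeated duplication and lie in clusters, above all on chromosome 19. Within the transcription machinery, CDK7 belongs to TFIIH and CDK9 drives P-TEFb, and both phosphorylate RNA polymerase II.

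The study sequenced 3′ ends of poly(A) RNA from 2 triple-negative breast cancer lines, spelled MDA-MD-231 and MDA-MD-468 in the labels. Each line gave a DMSO and a parental (untreated) library at 0 h, and libraries after 3, 6 and 12 h of SY200, of V50 and of both together (SY200/V50), which makes 22 libraries. A second set of 11 libraries, of MDA-MD-231, holds a parental library and, at 72 and at 96 h, 1 library each of Empty vector and of knockouts of 1 kinase (CDK1 KO, CDK7 KO or CDK9 KO) or of a pair (CDK7/9 KO). The series concerns inhibitors of CDK7 and CDK9, but the labels tie neither SY200 nor V50 to a kinase, give no unit for the numbers in those names, and leave unsaid whether a knockout is 1 clone or a pool. The inhibitor libraries of a line differ by treatment and time alone in the labels, and each combination of line, treatment and time has 1 library, so a test sets the lines, or the knockout times, against each other as repeats. Nothing says that libraries came from separate cultures, and p-values then measure only the spread between these libraries.

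Library totals ran from 16985219 to 22859779 counts. The median of 9 marker genes of the line MDA-MB-231 lay at 312 to 781 CPM in libraries labelled MDA-MD-231 and at 16.2 to 42.4 CPM in those labelled MDA-MD-468, and that of 11 markers of MDA-MB-468 at 4.67 to 15.1 CPM and 365 to 478 CPM. Summed over 10 markers of immune cells, the level was 1.56 to 26.6 CPM. The 13 mitochondrially encoded mRNAs took 2.17% to 5.05% of counts in the MDA-MD-231 inhibitor libraries and 3.88% to 13.5% in those of MDA-MD-468, highest after 12 h of SY200/V50 in both lines. Scaling each library to these 13 mRNAs, in place of the TMM factors that assume most genes unchanged, moved the median change of all genes by −0.78 at 3 h and −0.98 at 12 h of V50, by −2.01 at 12 h of SY200/V50 and by −0.66 for loss of CDK9, all on the log2 scale. Since this scaling moves nearly all genes the same way, counts of tested changes under it are given with the share of all genes beside them. For most counts in single libraries under it only the range of that share is given. In bulk libraries fewer cells of a kind and less RNA per cell cannot be told apart, and a lower CPM is a smaller share of the library's RNA.

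All 270 genes are protein coding in GENCODE release 29, and 133 of them (49.3%) lie on chromosome 19. A KRAB A box run, a pair of glutamates and a tryptophan followed by a leucine after 2 further residues, was found near the start of the translated coding sequence in 124 genes, 93 of them on chromosome 19. The number of C2H2 finger runs ranged from 0 to 34 with a median of 10. Control levels reached a median of 18.7 CPM and a maximum of 179 CPM. The 8 highest were ZNF185 (179.0 CPM), which encodes a LIM domain protein of the actin cytoskeleton and held no C2H2 run, ZNF207 (174.6 CPM), a spindle assembly factor, ZNF146 (160.6 CPM), ZNF664 (158.9 CPM), ZNF106 (131.7 CPM), ZNF638 (128.1 CPM), which silences unintegrated retroviral DNA, ZNF217 (98.9 CPM), an oncogene amplified in breast cancer, and ZNF24 (89.5 CPM). In the controls 202 of the 270 genes lay within 2-fold between the lines, 52 were at least 2 times as high in MDA-MD-468 and 16 in MDA-MD-231.

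Because many of these genes moved together after V50, the sequence before their start sites is shown for 5 of them: 3 that fell far, 1 that ended above the controls and 1 from a chromosome 19 cluster. RefSeq promoters (build GRCh38.p14, 250 bases before to 50 after the start) were matched for 230 of the 270 genes. The 150 bases that end just before the RefSeq start are printed 5′ to 3′ on the strand of the gene, and distances count from that start. Gene positions given further below are those of GENCODE release 29. By them ZNF281, ZNF526, ZNF830 and ZNF317 begin inside the printed stretch. Capitals mark matches, on either strand, to GGGCGG (GC box), to the box CCAAT, to the core CCGGAA of ETS factors and to the core bound by ZNF143, itself one of the 270. The stretches are chr1:200410037-200410186 (minus strand) for ZNF281, chr19:42220162-42220311 (plus) for ZNF526, chr17:34961390-34961539 (plus) for ZNF830, chr19:9140247-9140396 (plus) for ZNF317 and chr19:21836183-21836332 (minus) for ZNF43.
ZNF281: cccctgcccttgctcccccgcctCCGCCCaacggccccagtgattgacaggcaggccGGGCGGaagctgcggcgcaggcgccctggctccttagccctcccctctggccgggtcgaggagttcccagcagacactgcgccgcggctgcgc
ZNF526: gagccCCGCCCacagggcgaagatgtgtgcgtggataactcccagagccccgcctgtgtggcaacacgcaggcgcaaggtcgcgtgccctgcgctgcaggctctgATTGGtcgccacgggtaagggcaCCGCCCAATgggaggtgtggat
ZNF830: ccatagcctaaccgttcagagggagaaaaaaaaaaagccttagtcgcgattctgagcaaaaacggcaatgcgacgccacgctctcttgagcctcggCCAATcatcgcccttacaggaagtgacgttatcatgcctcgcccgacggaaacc
ZNF317: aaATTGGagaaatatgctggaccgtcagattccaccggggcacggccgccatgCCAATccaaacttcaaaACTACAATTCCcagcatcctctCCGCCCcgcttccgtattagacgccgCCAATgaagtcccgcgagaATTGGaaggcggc
ZNF43: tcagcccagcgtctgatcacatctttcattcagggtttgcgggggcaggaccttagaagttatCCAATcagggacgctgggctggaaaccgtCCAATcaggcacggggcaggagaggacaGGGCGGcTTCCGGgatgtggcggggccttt
A match is a description of letters and not of a bound site.

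The ETS letters stood in 126 of the 230 promoters (54.8%), against 17.6% of all 27305 promoters and 32.3% of the 8082 promoters of genes at 10 CPM or more. The ZNF143 core stood in 5 promoters (2.17%, against 0.256% and 0.643%), those of ZNF451, ZNF277, ZNF140, ZNF317 and ZNF180. The GC box stood in 63.9% (44.6% and 72.7%) and CCAAT in 40.9% (35.7% and 37.5%), while the TATA letters TATAAA stood in 3.04% (12.0% and 4.90%). Further letters searched were the NRF1 core with 3.04% (1.36% and 2.60%), AAGATGGC (YY1) with 6.09% (3.03% and 6.21%) and TGACGTCA (CRE) with 5.22% (1.98% and 3.53%). The ETS letters stand in the printed stretch of ZNF43, on the reverse strand 23 bases before the start, and not in those of ZNF281, ZNF526, ZNF830 or ZNF317, and the ZNF143 core stands 80 bases before the start of ZNF317. Genes with and without the ETS letters in the whole RefSeq window had medians of −0.88 and −1.02 at 3 h of V50.

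The median of these genes was below control at 3 h of V50, and at 12 h it was above control with TMM scaling and below it with mitochondrial scaling. In MDA-MD-231 the 270 genes together took 0.696% and 0.600% of counts in the DMSO and parental libraries, 0.326%, 0.373% and 0.808% after 3, 6 and 12 h of V50. In MDA-MD-468 the same share was 0.853% and 0.793% in the controls and 0.527%, 0.682% and 0.947% after V50. Both lines thus had their lowest V50 share at 3 h and a 12 h share above both controls.

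At 3 h of V50, 80 of the 270 genes had fallen and none had risen (edgeR quasi-likelihood test, Benjamini-Hochberg adjusted p under 0.05 over all 18911 genes tested), where 3.26% of all genes and 4.49% of genes at 10 CPM or more in the controls had fallen and 0.846% of all genes had risen. The median change of the 270 was −0.94 on the log2 scale (quartiles −1.37 and −0.56), and that of all genes was 0.06. In 232 genes the change was below 0 in both lines, as in 28.7% of all genes. At 6 h, 87 had fallen and 2 had risen with a median of −0.54, beside 11.5% of all genes lower (16.5% of those at 10 CPM or more) and 11.9% higher. At 12 h, 16 were lower and 41 higher with a median of 0.39, beside 7.20% lower and 8.01% higher (7.67% of those at 10 CPM or more). Under scaling to the mitochondrial mRNAs the 12 h median turned to −0.59 where all genes had −0.99, and 121 genes were lower and 1 higher, beside 61.6% and 2.00% of all genes. Of the 41 rises 33 stayed above 0 with that scaling, and 1 kept its call. The counts lean on single libraries, since the 80 falls at 3 h became 3 without MDA-MD-231 V50 3 h, 17 without MDA-MD-468 V50 3 h and 48 without MDA-MD-231 DMSO. Without MDA-MD-231 V50 6 h the 87 became 8, and without MDA-MD-231 V50 12 h the 41 rises became 1 and the 16 falls 0. With DMSO alone as the control the 12 h counts were 9 lower and 18 higher, beside 5.47% and 4.93% of all genes.

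The return itself was tested between treated libraries. From 3 to 12 h of V50, 163 of the 270 genes rose and 2 fell, where 7.97% of all genes (10.8% of those at 10 CPM or more) rose and 4.84% fell, and 225 of the 270 were above 0 in both lines, as were 28.3% of all genes. Their median change over that time was 1.33, against −0.09 for all genes. With mitochondrial scaling 135 rose and 3 fell, beside 5.12% and 5.56% of all genes, with a median of 1.14. The 163 became 20 without MDA-MD-231 V50 3 h, 54 without MDA-MD-231 V50 12 h and 107 without MDA-MD-468 V50 3 h.

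**Figure D1:**
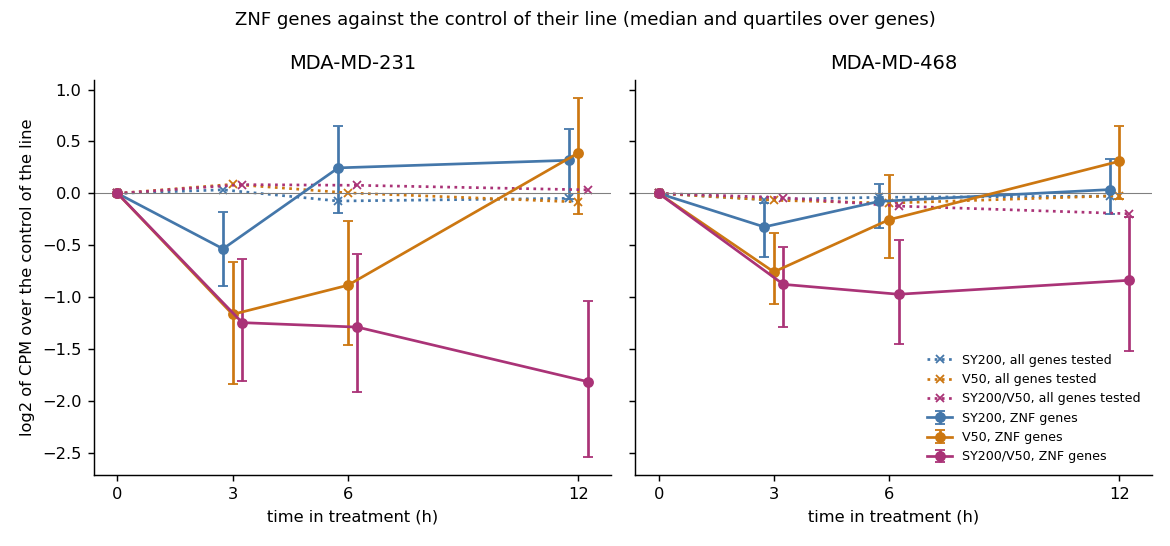
Median log2 ratio of the ZNF genes (circles, bars from the lower to the upper quartile over genes) and of all genes tested (crosses) to the DMSO and parental mean of the line, by time in treatment, 1 library a point and points set slightly apart. V50 goes from −1.17 at 3 h to 0.39 at 12 h in MDA-MD-231 and from −0.76 to 0.31 in MDA-MD-468, whereas SY200/V50 stays at −0.84 or below in both lines; with mitochondrial scaling the V50 points at 12 h lie below 0 in the fit over both lines.

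Counted in each line on its own, V50 left 152 of 265 genes (57.4%) at 0.5 of their control level or less at 3 h in MDA-MD-231, 116 at 6 h and 19 at 12 h, where 10.6%, 17.4% and 13.9% of all genes stood that low. In MDA-MD-468 the counts were 81 of 266 (30.5%), 31 and 5, where 8.47%, 10.8% and 8.15% of all genes stood that low. At 12 h, 58 genes of MDA-MD-231 (21.9%) and 21 genes of MDA-MD-468 (7.89%) were at 2 times their control level or more, beside 4.01% and 3.24% of all genes. By the same measure the parental against the DMSO library had 3 genes at 0.5 or less in MDA-MD-231, against 0 in MDA-MD-468, beside 3.41% and 1.77% of all genes. With 1 library a point these counts carry no test.

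The difference between lines, tested over the 3 times of each treatment, passed the threshold for none of the 270 genes with edgeR, beside 0% of all genes. At an unadjusted p under 0.05 the V50 effect was higher in MDA-MD-468 for 24 genes and lower for 3, that of SY200/V50 was higher for 57 and lower for 6, and that of SY200 was higher for 4 and lower for 7. Over all genes tested the shares at that p were 4.46% and 5.45% for V50, 5.98% and 9.94% for SY200/V50 and 2.27% and 3.27% for SY200. DESeq2 called 2 genes for V50, 10 for SY200/V50 and 0 for SY200, all of them higher. Of all genes 0.222%, 0.904% and 0.0159% were higher there, and 0.412%, 1.32% and 0.159% lower. Without either SY200/V50 3 h library edgeR called 5 for SY200/V50. ZNF552, with a difference of 1.83 ± 0.45 (SE) for V50, had an edgeR adjusted p of 0.235.

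The largest V50 falls were in ZNF503, ZNF281, ZNF543, ZNF830, ZNF526 and ZNF114. ZNF281 (chr1:200404940-200410056), a transcriptional regulator that binds GC-rich promoters, stood at 52.2 and 46.2 CPM in the DMSO and parental libraries of MDA-MD-231 and at 3.67, 5.78 and 54.1 CPM after 3, 6 and 12 h of V50. In MDA-MD-468 it had 54.8 and 63.5 CPM in the controls and 9.67, 27.3 and 49.8 CPM after V50. All 3 and 6 h libraries lay below all 4 controls, and at 12 h they lay among them. The fitted change of ZNF281 was −3.11 ± 0.52 (SE) at 3 h (edgeR adjusted p = 0.00368) and 3.09 ± 0.55 from 3 to 12 h (adjusted p = 0.00271). Both calls were lost without MDA-MD-231 V50 3 h.

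ZNF526 (chr19:42220271-42228201) had 17.6 and 18.6 CPM in the MDA-MD-231 controls and 1.83, 5.10 and 20.2 CPM after 3, 6 and 12 h of V50. Its MDA-MD-468 levels were 19.9 and 23.4 CPM in the controls and 4.12, 10.7 and 20.7 CPM with V50. The same order held in both lines, lowest at 3 h, intermediate at 6 h and among the controls or just above them at 12 h. The 3 h change was −2.80 ± 0.36 (edgeR adjusted p = 0.000743).

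ZNF830 (chr17:34961530-34963775) encodes a nuclear protein that associates with the spliceosome. It went from 12.6 and 13.6 CPM in the MDA-MD-231 controls to 1.48, 2.55 and 11.5 CPM with V50. In MDA-MD-468 it went from 8.81 and 10.3 CPM to 1.65, 5.05 and 8.31 CPM. Here the 12 h libraries stayed just under both controls of their line. The change at 3 h was −2.85 ± 0.36 (edgeR adjusted p = 0.000672).

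ZNF503 (chr10:75397830-75401906), a transcriptional repressor in which the search found no C2H2 run, had a 3 h change of −3.26 ± 0.62 (edgeR adjusted p = 0.0073), and ZNF543 had −2.98 ± 0.51 (adjusted p = 0.00428). The ZNF503 call was lost without either V50 3 h library, and that of ZNF543 without the one of MDA-MD-231. ZNF114, with −2.55 ± 0.39, had controls at 20.2 and 25.6 CPM in MDA-MD-231 and, near 0, at 0.229 and 0.307 CPM in MDA-MD-468. It met the 10 CPM limit through MDA-MD-231 alone, so its changes, here and below, can be read in that line only. Its call, too, was lost without MDA-MD-231 V50 3 h.

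The largest rises from 3 to 12 h of V50 were in ZNF543 (3.40 ± 0.55), ZNF627 (3.33 ± 0.53), ZNF503 (3.22 ± 0.66), ZNF668 (3.11 ± 0.48), ZNF281 and ZNF845 (3.07 ± 0.61). ZNF627, a chromosome 19 gene with the KRAB run, had 10.7 and 11.8 CPM in the MDA-MD-231 controls and 1.32, 3.74 and 27.2 CPM with V50, and 20.7 and 23.7 CPM in those of MDA-MD-468 and 5.61, 19.4 and 30.0 CPM with V50. It thus ended above both controls in each line. ZNF503 and ZNF845 lost their calls without either MDA-MD-231 library of the comparison. ZNF664 went the other way, from 179 to 97.1 CPM in MDA-MD-231 and from 161 to 132 CPM in MDA-MD-468, a change of −0.57 ± 0.155 (edgeR adjusted p = 0.0219). Its call was lost without either V50 3 h library, and also without that of MDA-MD-231 at 12 h.

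ZNF317 (chr19:9140380-9163424) had the smallest adjusted p of the 12 h comparison. After 3, 6 and 12 h of V50 it measured 28.8, 85.6 and 230.6 CPM in MDA-MD-231, where the controls had 60.5 and 53.4 CPM. The MDA-MD-468 values were 21.3, 46.9 and 71.1 CPM, with controls at 35.2 and 33.9 CPM. Below its controls at 3 h and above them at 6 and 12 h in both lines, it changed by 1.58 ± 0.23 at 12 h (edgeR adjusted p = 0.000501) and by 0.58 with mitochondrial scaling, which kept the call. ZNF721 (1.58 ± 0.30) and ZNF43 (1.03 ± 0.20) rose at 12 h as well, with 0.59 and 0.05 and no call under mitochondrial scaling, and no call without MDA-MD-231 V50 12 h.

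Not every gene had come back by 12 h, as the values of ZNF608 show. ZNF608 had 16.6 and 14.8 CPM in the MDA-MD-231 controls and 4.68, 1.93 and 1.92 CPM after 3, 6 and 12 h of V50, and 45.5 and 65.1 CPM in those of MDA-MD-468 and 25.7, 17.8 and 20.5 CPM with V50. All 6 V50 libraries were below both controls of their line, and the 12 h change was −2.12 ± 0.40 (edgeR adjusted p = 0.00299), a call lost without MDA-MD-231 V50 12 h. The next genes are named by the 6 h comparison, whether or not they came back. There the smallest adjusted p belonged to ZNF282 (−1.91 ± 0.24, edgeR adjusted p = 0.000109), ZNF131 (−1.11 ± 0.16), ZNF576 (−1.56 ± 0.23) and ZNF114 (−2.77 ± 0.41). ZNF114, near 0 in MDA-MD-468, had no call without MDA-MD-231 V50 6 h. ZNF282 stood at 15.0 and 15.2 CPM at 3 h of V50 in MDA-MD-231 and MDA-MD-468, at 8.90 and 14.2 CPM at 6 h, and at 42.2 and 35.2 CPM at 12 h, with controls between 40.003 and 47.0 CPM.

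**Figure D2:**
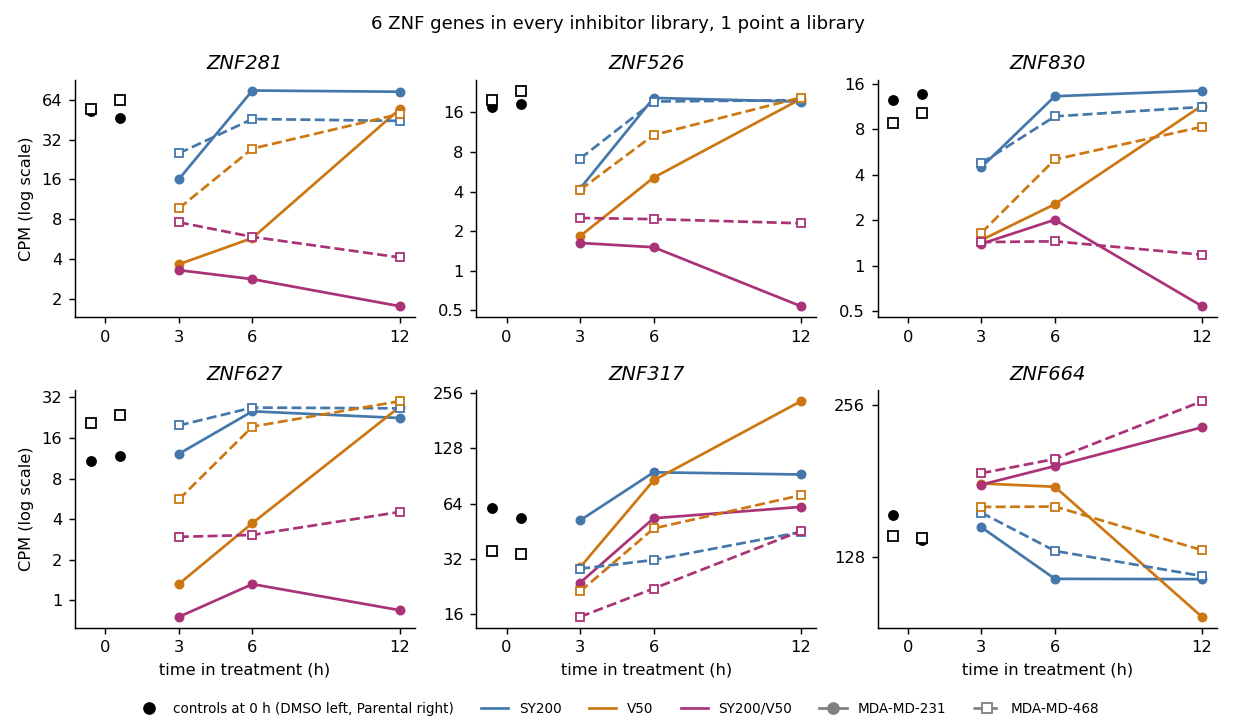
CPM (log scale) of 6 ZNF genes in the 22 inhibitor libraries by time in treatment, 1 point a library, with filled circles and solid lines for MDA-MD-231, open squares and dashed lines for MDA-MD-468, and DMSO (left) and parental (right) controls in black at 0 h. ZNF281, ZNF526, ZNF830 and ZNF627 climb from 3 to 12 h of V50 and stay low in SY200/V50, ZNF317 passes its controls with V50, and ZNF664 reaches its highest level at 12 h of SY200/V50 (231.2 and 261 CPM).

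The genes are next given by role, with no test between roles. Of the 10 genes with roles in RNA, ribosomes or the spindle, 3 had fallen at 3 h of V50, where 3.26% of all genes had, with a median of −0.32. The 3 were ZNF830, ZNF346, which binds double-stranded RNA (−0.89), and ZNF622, a maturation factor of the large ribosomal subunit (−1.07 ± 0.28). By CPM ZNF622 was above its controls at 12 h, with a change of 0.12 and no call under mitochondrial scaling: in MDA-MD-231 it had 41.3 and 44.1 CPM in the controls and 20.1, 28.9 and 130 CPM with V50, and in MDA-MD-468 59.7 and 58.3 CPM and 28.6, 51.4 and 80.8 CPM. ZNF207 (−0.22), ZNF638 (−0.41), ZNF106 (0.17), ZNF326 (−0.02), ZNF330 (−0.64), ZNF593 (0.10) and ZNF598 (−0.03), a ubiquitin ligase that senses collided ribosomes, did not pass at 3 h.

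Of 18 measured members of the list of promoter-bound and corepressor-linked regulators, 2 had fallen at 3 h of V50 (median −0.68), beside 3.26% of all genes. The 2 were ZNF281 and ZNF217. ZNF217 (chr20:53567065-53609907) had 57.1 and 57.8 CPM in the MDA-MD-231 controls and 6.26, 23.9 and 47.9 CPM with V50. In MDA-MD-468 its controls were further apart, 95.4 and 147 CPM, and V50 gave 35.3, 80.2 and 77.0 CPM. The 3 h change was −2.35 ± 0.44 (edgeR adjusted p = 0.00649). At 12 h ZNF384 (0.76), ZNF652 (0.83) and ZNF687 (0.99) were higher with TMM (−0.22, −0.15 and 0.03 with mitochondrial scaling, with no call). None was lower, and of all genes 8.01% were higher and 7.20% lower. From 3 to 12 h 8 of the 18 rose, beside 7.97% of all genes. ZNF143 had −0.69 at 3 h and 0.38 at 12 h and passed at neither time.

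Of the 10 KRAB genes with known repeat or imprint targets, all had changes between −1.83 and −0.57 at 3 h of V50 and between 0.10 and 1.07 at 12 h, the latter between −0.88 and 0.10 with mitochondrial scaling. At 3 h 5 had fallen, namely ZNF202, ZNF274, ZNF44, ZNF765 and ZNF93, and from 3 to 12 h 8 rose, beside 3.26% and 7.97% of all genes. ZNF93, which binds an older form of the LINE-1 element, had 6.75 and 9.18 CPM in the MDA-MD-231 controls and 3.82, 6.01 and 10.4 CPM with V50, and 19.9 and 22.3 CPM in those of MDA-MD-468 and 10.1, 16.1 and 23.5 CPM with V50. ZNF91, which binds SVA elements, had a 3 h change of −0.78 that did not pass.

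The partner genes of KRAB proteins were not tested against the 270. Of 24 genes of the KRAB corepressor pathway none had fallen at 3 h of V50 and 1, CHD3, had risen, beside 3.26% and 0.846% of all genes. CHD3 changed by 0.72 ± 0.15, and by −0.07 with no call under mitochondrial scaling, and the median of the 24 was 0.12. TRIM28 changed by 0.13 ± 0.18 and SETDB1 by −0.61 ± 0.21, and neither passed. At 6 h of V50, 5 were lower and 4 higher, beside 11.5% and 11.9% of all genes. The 5 were SETDB1 (−1.15 ± 0.22), ATF7IP (−1.26 ± 0.40), MPHOSPH8 (−0.92 ± 0.21), MORC2 (−0.82 ± 0.22) and SMARCAD1 (−0.81 ± 0.19), and the 4 higher, CHD3, HDAC1, CBX3 and RBBP7, were all below 0 with mitochondrial scaling. GATAD2B rose from 3 to 12 h of V50 (1.81 ± 0.31) and no other gene of the 24 passed there. At 12 h of SY200/V50, 8 of the 24 were lower and 9 higher, beside 23.7% and 25.9% of all genes. Among the lower were SETDB1 (−1.70 ± 0.23) and SMARCAD1 (−2.20 ± 0.21), while HDAC1 (1.27 ± 0.11) and the other 8 higher genes were all below 0 with mitochondrial scaling (HDAC1 −0.74), and TRIM28 (0.36 ± 0.18) did not pass.

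Other zinc finger genes were lower at 3 h as well. At 3 h of V50, 57 of 181 tested ZNF genes under 10 CPM had fallen (median −1.16), as had 10 of 34 ZBTB genes (−1.08), 9 of 25 ZSCAN and ZKSCAN genes (−1.13) and 7 of 17 ZFP genes (−1.15), with no rise in any of these groups, beside 3.26% of all genes lower. From 3 to 12 h of V50 they rose in 83, 16, 12 and 8 cases, with medians of 1.39, 1.11, 1.25 and 1.17, beside 7.97% of all genes higher.

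Within the 270, the values were also read by finger number, without a test. The 23 genes with 0 to 2 finger runs had a median of −0.42 at 3 h of V50, and the groups with 3 to 5, 6 to 9, 10 to 13 and 14 or more runs had −0.86, −0.997, −0.99 and −1.02. At 12 h of V50 the medians were −0.06, 0.07, 0.42, 0.43 and 0.62 in that order. There 1, 4, 7, 15 and 14 genes were higher, beside 8.01% of all genes, and 1 of these 41 rises kept its call with mitochondrial scaling. At 12 h of SY200/V50 the medians were −1.04, −1.40, −1.17, −1.22 and −1.10. Genes on chromosome 19 had medians of −1.03 at 3 h and 0.53 at 12 h of V50, with 29 of 133 higher at 12 h. The others had −0.81 and 0.14, with 12 of 137 higher, beside the same 8.01% of all genes. The KRAB run gave a like split at 12 h, 0.53 and 24 of 124 with it against 0.15 and 17 of 146 without it. Finger number, the KRAB run and chromosome 19 go together, and their separate parts were not tested. Split by gene length into groups of 67 or 68 genes, from shortest to longest, the medians at 3 h were −1.03, −1.07, −0.85 and −0.81.

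**Figure D3:**
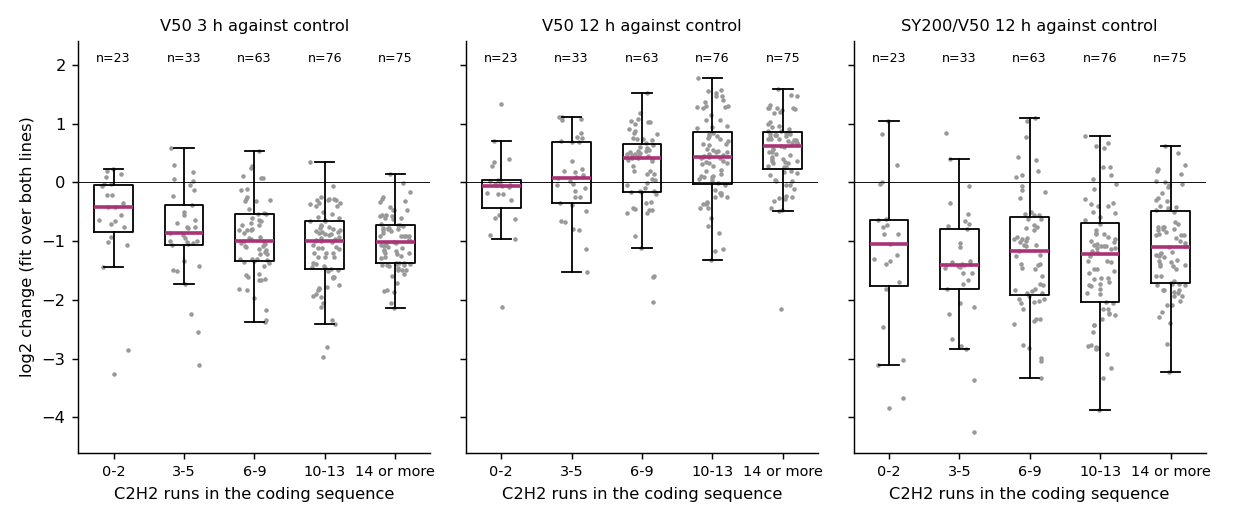
Log2 change of each ZNF gene (grey points, 270 a panel) in 3 comparisons by the number of C2H2 finger runs found in its coding sequence, with boxes for quartiles, purple lines for medians and whiskers to the last point within 1.5 box heights. At 12 h of V50 the medians run from −0.06 with 0 to 2 runs to 0.62 with 14 or more, and with mitochondrial scaling the median of all 270 there is −0.59.

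SY200 alone moved few of the genes past the threshold. In MDA-MD-231 the 270 genes took 0.453%, 0.776% and 0.791% of counts at 3, 6 and 12 h of SY200, and in MDA-MD-468 0.662%, 0.767% and 0.861%. At 3 h, 7 genes had fallen and none had risen (median −0.42), beside 0.264% of all genes lower and 0.159% higher. In both lines 188 of the 270 were below 0, as were 29.5% of all genes. At 6 h none passed with edgeR, beside 0.0582% of all genes lower and 0.206% higher. At an unadjusted p under 0.05, 10 were lower and 11 higher, beside 5.55% and 6.67% of all genes. DESeq2 gave none either, beside 0.783% and 0.931% of all genes. At 12 h 1 passed, ZNF692 (−1.37 ± 0.28), beside 1.14% of all genes lower and 1.30% higher, a call that ended when DMSO alone was the control or when either SY200 12 h library was left out. From 3 to 12 h 14 rose and none fell (median 0.65), beside 0.978% of all genes higher and 0.968% lower. In single lines 50, 7 and 2 of 265 genes were at 0.5 of their control or less at 3, 6 and 12 h in MDA-MD-231, beside 5.07%, 4.12% and 4.39% of all genes, and 15, 2 and 3 of 266 in MDA-MD-468, beside 4.05%, 2.93% and 6.49%.

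Those counts are fragile. The 7 falls became 0 without either SY200 3 h library, 3 with DESeq2 size factors in edgeR or with no filter on low counts, 1 with DMSO alone as the control, 24 with DESeq2 and 102 with mitochondrial scaling, where 1.40% and 8.65% of all genes were lower. They became 3 or 4 without any 1 of 10 other libraries: the DMSO and parental libraries of each line, the SY200/V50 3 h and 6 h libraries of each line, and both V50 12 h libraries. The 14 rises became 0 without any 1 of the 4 libraries compared, and 4 to 9 without MDA-MD-468 DMSO, either V50 3 h library, either SY200/V50 3 h library or either SY200/V50 6 h library.

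ZNF282, in which 40.003 and 44.0 CPM in the MDA-MD-231 controls became 16.9 CPM, and 41.6 and 47.0 CPM in those of MDA-MD-468 became 17.1 CPM, changed by −1.34 ± 0.23 at 3 h of SY200 (edgeR adjusted p = 0.0139). It was back at 46.6 and 43.4 CPM by 12 h. ZNF526 fell by 1.85 on the log2 scale (SE 0.33) to 4.21 and 7.11 CPM and stood at 19.2 and 19.8 CPM at 12 h. ZNF114 (−2.31 ± 0.38) and ZNF324 (−1.46 ± 0.29) completed the 4 with the smallest adjusted p. ZNF324 had no call in 13 of the 22 fits that left out 1 library. The other calls were lost without either SY200 3 h library. Only that of ZNF114, a gene near 0 in MDA-MD-468, held with DMSO alone as the control. SY200 and V50 were not tested against each other.

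With SY200 and V50 together the genes were low at 3 h and stayed low to 12 h. The share of counts was 0.322%, 0.284% and 0.199% at 3, 6 and 12 h in MDA-MD-231, and it was 0.479%, 0.451% and 0.432% in MDA-MD-468. Each was below both controls of its line, and the 12 h value was the lowest of the 3 in both. Of the 270 genes 123 had fallen at 3 h, 162 at 6 h and 187 at 12 h, beside 5.66%, 17.5% and 23.7% of all genes and 7.99%, 25.4% and 33.6% of those at 10 CPM or more, and 0, 4 and 9 had risen, beside 1.88%, 17.3% and 25.9%. The medians were −1.06, −1.10 and −1.23, and those of all genes 0.07, 0.11 and 0.09. With mitochondrial scaling 256, 268 and 269 of the 270 had fallen and none had risen, beside 45.6%, 74.2% and 83.9% of all genes lower, with medians of −1.90, −2.49 and −3.26 where all genes had −0.77, −1.31 and −1.92. The 123 became 14 without MDA-MD-231 SY200/V50 3 h and 21 without MDA-MD-468 SY200/V50 3 h. The 162 became 83 and the 187 became 110 without the MDA-MD-231 library of that time.

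In single lines, 154, 162 and 199 of 265 genes were at 0.5 of their control or less at 3, 6 and 12 h of SY200/V50 in MDA-MD-231, beside 11.2%, 20.0% and 27.8% of all genes. In MDA-MD-468 the counts were 111, 131 and 111 of 266, beside 11.0%, 18.6% and 23.8%. At 12 h 4 and 5 genes were at 2 times their control or more in the first and the second line, beside 20.6% and 9.77% of all genes. From 3 to 12 h 34 genes fell further and 7 rose, beside 8.73% and 9.57% of all genes (14.1% lower among those at 10 CPM or more), with a median of −0.15. That count depended on 3 of the 4 libraries it compares: the 34 became 8 without MDA-MD-231 SY200/V50 3 h, 11 without MDA-MD-231 SY200/V50 12 h and 12 without MDA-MD-468 SY200/V50 3 h, 17 with no filter on low counts and 192 with mitochondrial scaling, which left no rise and lowered 55.2% of all genes. The 7 rises became 2, 16, 4 and 3 without MDA-MD-231 SY200/V50 3 h, MDA-MD-231 SY200/V50 12 h, MDA-MD-468 SY200/V50 3 h and MDA-MD-468 SY200/V50 12 h.

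The 12 h libraries of both treatments were then set against each other. There 204 of the 270 genes were lower with SY200/V50 than with V50 and 6 were higher, where 18.2% of all genes (27.3% of those at 10 CPM or more) were lower and 19.3% higher. The median difference was −1.58 (all genes 0.24), and 235 genes were lower in both lines, as were 29.7% of all genes. The 204 became 112 without MDA-MD-231 SY200/V50 12 h. The change from 3 to 12 h itself was lower with SY200/V50 than with V50 in 106 genes and higher in 2, beside 8.29% and 4.62% of all genes (13.5% lower among those at 10 CPM or more), with a median of −1.49. Without any 1 of MDA-MD-231 V50 3 h (46), MDA-MD-231 V50 12 h (58), MDA-MD-231 SY200/V50 3 h (52), MDA-MD-231 SY200/V50 12 h (19), MDA-MD-468 V50 3 h (49) or MDA-MD-468 SY200/V50 3 h (49) the 106 were fewer. Without MDA-MD-468 SY200/V50 12 h they were 167, and with mitochondrial scaling 238, where 26.0% of all genes were lower.

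ZNF281 had the largest difference in both tests. With SY200/V50 it stood at 3.31, 2.83 and 1.77 CPM at 3, 6 and 12 h in MDA-MD-231 and at 7.60, 5.90 and 4.13 CPM in MDA-MD-468, falling at each step in both lines. Against V50 at 12 h the difference was −4.23 ± 0.60 (edgeR adjusted p = 0.000101), and against its own controls −4.25 ± 0.57 (adjusted p = 1.73e-05). The difference in the change over time was −3.96 ± 0.79 (edgeR adjusted p = 0.00665), a call lost without MDA-MD-231 SY200/V50 12 h.

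ZNF526 stood at 0.539 CPM in MDA-MD-231 and 2.30 CPM in MDA-MD-468 at 12 h of SY200/V50, a change of −3.87 ± 0.40 against control and −3.93 ± 0.42 against V50 (edgeR adjusted p = 1.59e-06 and 1.42e-05). ZNF830 stood at 0.539 and 1.18 CPM, with −3.67 ± 0.39 and −3.47 ± 0.42. ZNF608 (−3.85 ± 0.47), ZNF114 (−3.36 ± 0.44) and ZNF772 (−3.32 ± 0.44) followed among the falls against control. Of these, the call of ZNF114, a gene near 0 in MDA-MD-468, was lost without MDA-MD-231 SY200/V50 12 h. Against V50 the list went on with ZNF627 (−3.69 ± 0.55), ZNF398 (−3.56 ± 0.63) and ZNF614 (−3.52 ± 0.46), calls that held in all 22 fits that left out 1 library.

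At 3 h of SY200/V50 the smallest adjusted p belonged to ZNF526 (−3.29 ± 0.37), ZNF830, ZNF324 (−2.43 ± 0.32) and ZNF319 (−2.27 ± 0.31), and at 6 h to ZNF282 (−2.48 ± 0.24, edgeR adjusted p = 1.06e-05), ZNF526, ZNF576 (−2.04 ± 0.24) and ZNF131 (−1.34 ± 0.16). ZNF282 had 5.91 and 4.93 CPM at 6 and 12 h of SY200/V50 in MDA-MD-231, and 9.66 and 7.67 CPM in MDA-MD-468, where V50 alone had 42.2 and 35.2 CPM at 12 h. From 3 to 12 h of SY200/V50, ZNF211 rose (1.71 ± 0.26, and 0.51 with no call under mitochondrial scaling) while ZNF488 (−2.35 ± 0.42), ZNF41 (−1.31 ± 0.24) and ZNF638 (−1.36 ± 0.25) fell further. ZNF638, one of the highest of the 270, had 101 and 76.8 CPM in the MDA-MD-231 controls and 62.5, 35.1 and 19.7 CPM with SY200/V50, and 147 and 135 CPM in those of MDA-MD-468 and 106, 65.9 and 48.5 CPM.

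All 9 genes that were higher at 12 h of SY200/V50 were below 0 with mitochondrial scaling. ZNF428 had 26.7 and 26.2 CPM in the MDA-MD-231 controls and 54.4 CPM at 12 h, and 41.3 and 35.1 CPM in those of MDA-MD-468 and 78.3 CPM at 12 h. Its change was 1.04 ± 0.17 (edgeR adjusted p = 0.000101), and −0.97 with mitochondrial scaling. ZNF358 (1.09 ± 0.26, then −0.92), ZNF219 (1.04 ± 0.29, then −0.95), ZNF580 (0.85 ± 0.25, then −1.16), ZNF185 (0.82 ± 0.18, then −1.20) and ZNF408 (0.79 ± 0.23, then −1.24) were the others of the 6 with the largest values. Leaving out MDA-MD-231 SY200/V50 12 h ended the calls of ZNF219, ZNF580 and ZNF408, and leaving out MDA-MD-468 SY200/V50 12 h those of ZNF580 and ZNF408. Against V50 at 12 h ZNF664 was higher by 1.11 ± 0.16, and by 0.06 with no call under mitochondrial scaling.

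By role, 6 of the 10 genes with RNA, ribosome or spindle roles had fallen at 12 h of SY200/V50 (median −0.74). Of all genes 23.7% had fallen there, and 33.6% of those at 10 CPM or more. ZNF207 (−0.72) was among the 6, and ZNF106 (−0.06) and ZNF598 (−0.02) were not. Of the 18 promoter-bound or corepressor-linked regulators 11 had fallen (median −1.36), with ZNF217 at −3.05 ± 0.46, ZNF143 at −1.47 and ZNF24 at −1.38. ZNF532 rose with TMM (0.62) and had −1.41 with mitochondrial scaling. Of the 10 KRAB genes with known targets 9 had fallen (median −1.23), with ZNF445, which guards imprinted loci, at −1.94 and ZNF268 (−0.32) as the exception that did not pass.

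**Figure D4:**
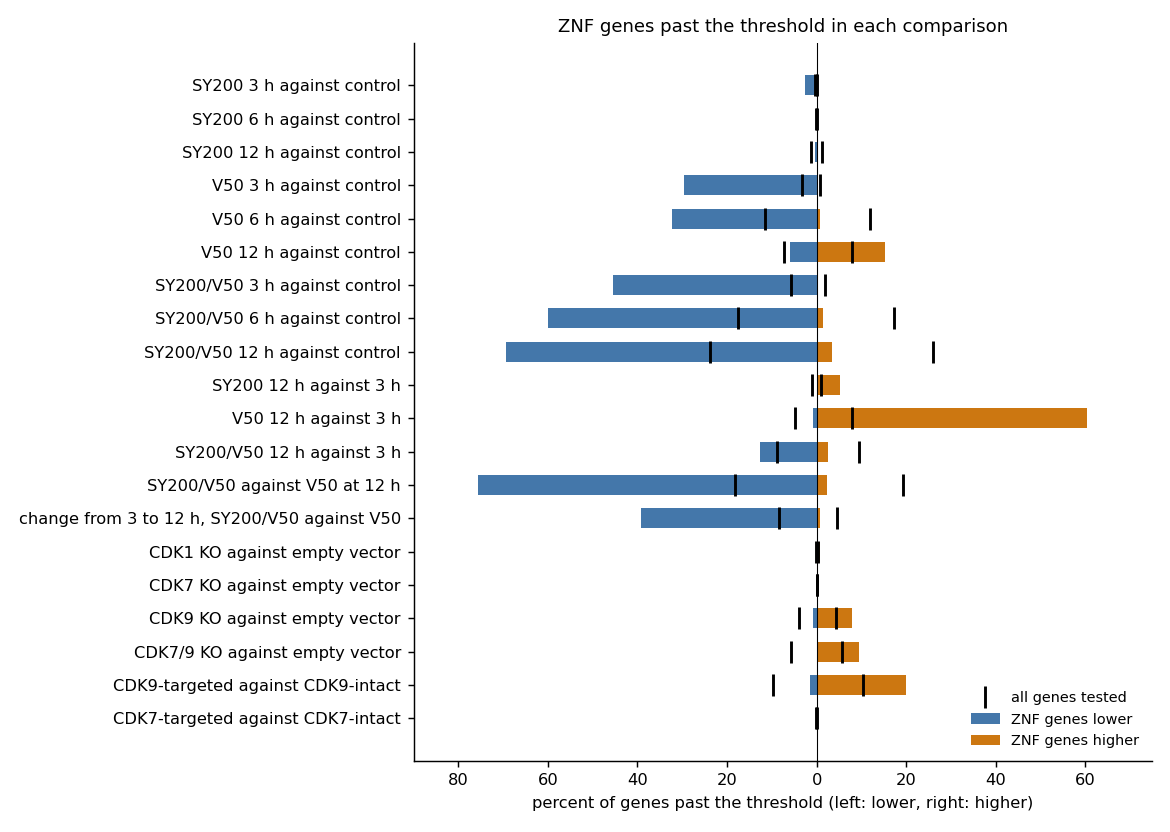
Percent of the ZNF genes lower (blue, left) and higher (orange, right) at an edgeR adjusted p under 0.05 in each comparison, with black ticks for all genes tested. The blue bars of V50 and SY200/V50 against control lie past the ticks at 3 and 6 h, and at 12 h those of SY200/V50 alone; with mitochondrial scaling 8 of the 41 rises at 12 h of V50 and 50 of the 53 rises over the CDK9-targeted libraries have changes below 0.

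The knockout libraries were all of MDA-MD-231. CDK1 stood at 179.6 and 283 CPM in the empty vector libraries at 72 and 96 h and at 82.7 and 85.1 CPM in CDK1 KO. CDK7 stood at 49.3 and 66.6 CPM with empty vector, at 15.4 and 13.8 CPM in CDK7 KO and at 15.7 and 17.2 CPM in CDK7/9 KO. CDK9 stood at 70.9 and 62.2 CPM with empty vector, at 33.4 and 36.5 CPM in CDK9 KO and at 34.6 and 36.8 CPM in CDK7/9 KO. The targeted mRNAs were thus lower in the libraries labelled so, though 3′ reads do not show the edit itself. At 96 h CDK1 was also below empty vector in CDK7 KO (141 CPM), CDK9 KO (163 CPM) and CDK7/9 KO (151 CPM). At 72 h it had 154, 183 and 156 CPM in these. Mitochondrial mRNAs took 2.60% of counts in Empty vector 96 h, 3.72% to 4.01% in Empty vector 72 h, CDK1 KO and CDK7 KO, and 5.04% to 5.98% in CDK9 KO and CDK7/9 KO.

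The summed share of the genes was not tested in the knockouts. The 270 genes took 0.677% and 0.700% of counts with empty vector at 72 and 96 h and between 0.684% and 0.772% in the 8 knockout libraries. Of the 266 genes tested there, 2 were lower and 21 higher in CDK9 KO (median 0.14), beside 3.82% and 4.34% of all genes (4.05% higher among those at 10 CPM or more). In CDK7/9 KO 0 were lower and 25 higher (median 0.09), beside 5.62% and 5.72% (5.63%). Setting the 4 CDK9-targeted libraries (CDK9 KO and CDK7/9 KO) against the 4 of empty vector and CDK7 KO gave 4 lower and 53 higher (median 0.13), beside 9.67% and 10.3% (9.21%). In single libraries 4 genes were at 0.5 of empty vector or less in CDK7 KO 96 h, 1 in CDK9 KO 72 h and 0 in the other 6, beside 0.715% and 1.38% of all genes in CDK1 KO at 72 and 96 h, 0.970% and 1.83% in CDK7 KO, 1.39% and 2.88% in CDK9 KO and 1.56% and 2.95% in CDK7/9 KO. With mitochondrial scaling the medians of the 266 were −0.70, −0.72 and −0.53 where those of all genes were −0.82, −0.81 and −0.66, so the medians lay above all genes by 0.12, 0.08 and 0.13, as with TMM by 0.14, 0.10 and 0.13. The genes lower under that scaling were 195, 180 and 198, beside 67.6%, 65.9% and 73.0% of all genes, and 0, 0 and 1 were higher.

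CDK7 loss alone moved none of the 266 genes past the threshold with edgeR, beside 0.0238% of all genes called (0.00596% lower and 0.0179% higher). At an unadjusted p under 0.05, 23 were lower and 18 higher, beside 8.57% and 8.63% of all genes. DESeq2 gave 0 calls, beside 1.19% of all genes. The contrast of CDK7-targeted with CDK7-intact libraries also gave none, beside 0.0536% of all genes (0.0358% lower and 0.0179% higher). There 18 were lower and 10 higher at an unadjusted p under 0.05, beside 6.57% and 6.53% of all genes. With DESeq2 it had 0 calls, beside 0.697% of all genes. In CDK1 KO 0 were lower and 2 higher, ZNF841 (0.64 ± 0.11) and ZNF608 (0.63 ± 0.11), beside 0.0298% and 0.322% of all genes. Both had an edgeR adjusted p of 0.0495 and lost their calls with DESeq2 size factors, with mitochondrial scaling and without any 1 of the 8 knockout libraries.

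These counts hang on the empty vector libraries. The counts below stand without the share of all genes in the same fit, so an excess over all genes cannot be read from them. Without Empty vector 72 h, CDK7 KO gave 109 calls, CDK7-targeted 83, CDK1 KO 65 rises, CDK9 KO 72 rises and 23 falls, CDK7/9 KO 70 rises and 27 falls, and CDK9-targeted 93 rises and 17 falls. Without Empty vector 96 h, CDK9 KO gave 35 rises and 6 falls, CDK7/9 KO 38 rises and 4 falls, CDK9-targeted 91 rises and 17 falls, CDK7-targeted 2 calls and CDK1 KO 4 rises. Leaving out any 1 of the 8 knockout libraries gave 17 to 34 rises for CDK9-targeted and 0 to 10 for CDK9 KO. For CDK7/9 KO the 25 rises became 0 to 13 without a CDK1 KO, CDK7 KO or CDK7/9 KO library.

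ZNF83 (chr19:52594060-52690496) gave the largest change with CDK9 loss. It had 19.6 and 18.8 CPM with empty vector at 72 and 96 h, 21.4 and 18.6 CPM in CDK1 KO, 22.5 and 18.6 CPM in CDK7 KO, 38.5 and 43.9 CPM in CDK9 KO, and 40.1 and 40.2 CPM in CDK7/9 KO. All 4 CDK9-targeted libraries lay above all 6 others. The change over the CDK9-targeted libraries was 1.04 ± 0.09 (edgeR adjusted p = 0.000151), and 0.37 with mitochondrial scaling, which kept the call. In the inhibitor libraries of MDA-MD-231 the same gene had 15.4 and 9.35 CPM in the controls, 6.41 CPM at 3 h and 23.8 CPM at 12 h of V50, and in those of MDA-MD-468 43.6 and 37.0 CPM in the controls, 49.3 CPM at 3 h and 54.0 CPM at 12 h.

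ZNF580 (chr19:55635016-55643469) had 16.4 and 10.9 CPM with empty vector, 15.3 to 18.5 CPM in CDK1 KO and CDK7 KO, 27.0 and 26.9 CPM in CDK9 KO, and 25.1 and 27.1 CPM in CDK7/9 KO, again without overlap. Its change with CDK9 loss was 0.80 ± 0.11 (edgeR adjusted p = 0.00152), and 0.16 with no call under mitochondrial scaling. ZNF528 rose by 0.73 ± 0.10 (0.08 with mitochondrial scaling) and ZNF251 by 0.63 ± 0.08 (−0.03 with mitochondrial scaling). In CDK9 KO against empty vector alone, ZNF862 was also named (0.77 ± 0.21, and −0.02 with mitochondrial scaling), with a call lost in 9 of the 10 fits that left out 1 library. In CDK7/9 KO ZNF567 (0.80 ± 0.14, and 0.01 with mitochondrial scaling) and ZNF224 (0.75 ± 0.13, and −0.06) were named. In these 2 comparisons every one of those calls, ZNF83 and ZNF580 included, was lost without at least 1 library of the knockout itself.

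ZNF281, ZNF526 and ZNF830, among the deepest inhibitor falls, did not pass in any knockout comparison. ZNF281 had 44.9 and 43.6 CPM with empty vector, 49.8 and 49.99 CPM in CDK9 KO and 52.8 and 47.0 CPM in CDK7/9 KO. Chromosome 19 held 37 of the 53 genes higher with CDK9 loss (37 of 130 tested there, median 0.21), against 16 of 136 elsewhere (median 0.05). In that comparison 10.3% of all genes were higher and 9.67% lower. The 10 genes with RNA, ribosome or spindle roles had none higher and 1 lower, ZNF326 (−0.46), the 18 regulators none higher and 1 lower, ZNF532 (−0.36), and the 10 KRAB genes with known targets 3 higher, ZNF136, ZNF268 and ZNF91, with −0.34, −0.09 and −0.33 under mitochondrial scaling. By finger number from few to many, 3 of 23, 2 of 33, 11 of 62, 16 of 75 and 21 of 73 were higher. Reads of near-identical cluster neighbours on chromosome 19 may be split or shared between genes by the counting, which was not tested.

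**Figure D5:**
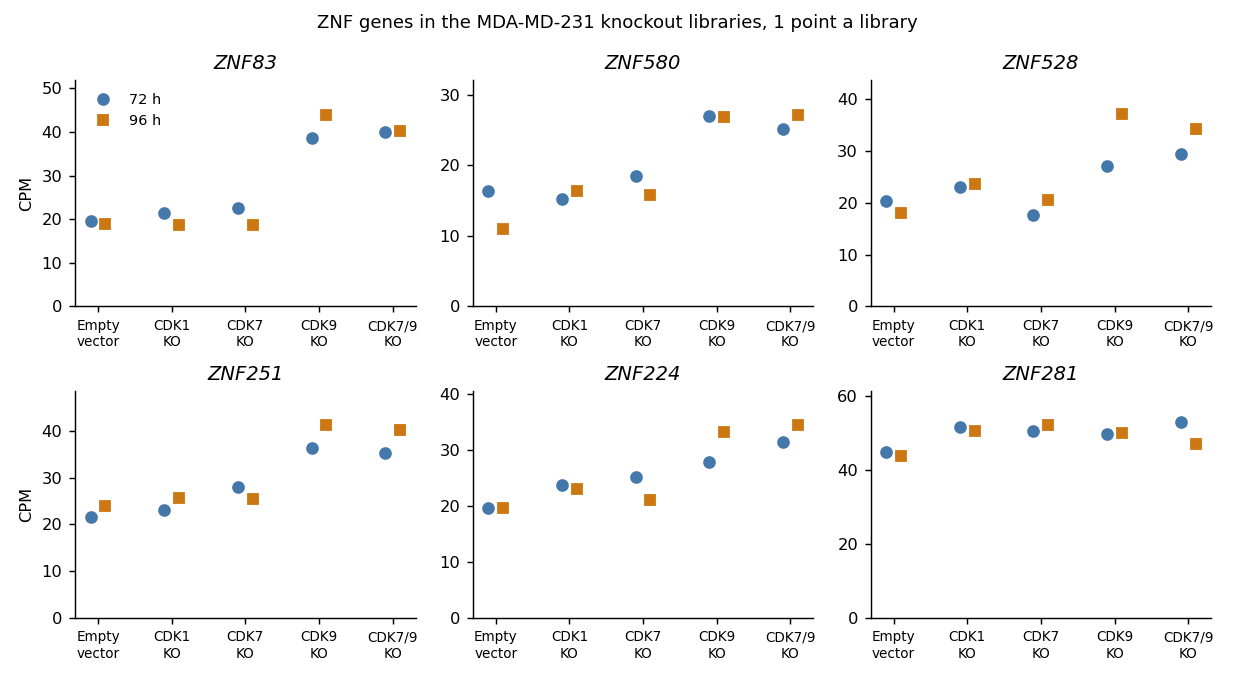
CPM of 6 ZNF genes in the 10 MDA-MD-231 knockout libraries (circles 72 h, squares 96 h, 1 point a library, axes from 0). ZNF83 goes from 18.6 to 22.5 CPM in the 6 libraries with CDK9 intact to 38.5 to 43.9 CPM in the 4 CDK9-targeted ones, ZNF580, ZNF528, ZNF251 and ZNF224 are higher there by less (log2 changes with mitochondrial scaling 0.16, 0.08 and −0.03 for the first 3 in CDK9-targeted libraries and −0.06 for ZNF224 in CDK7/9 KO), and ZNF281 stays between 43.6 and 52.8 CPM.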

How the data were processed

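The authors deposited raw whole-number counts for each gene symbol in each library. Per the submitters' processing notes reads went through FastQC and STAR 2.7.10a on GRCh38. How reads were counted, and on which strand, is not given in the sources used here. Counts were tested with edgeR 4.0.16 in R 4.3.3 (filterByExpr with a minimum count of 10 and total of 15, TMM factors, quasi-likelihood F test, Benjamini-Hochberg adjusted p under 0.05). The inhibitor model held line and a condition of 10 levels (11 residual degrees of freedom, 18911 genes), the line comparison added a term per treatment in MDA-MD-468 (8), and the knockout model held time and genotype (4, 16783 genes), without the parental library, which has no matching time. CPM per library are relative to TMM-scaled totals, SE is the change divided by the root of F, and values of 1 line used log2(CPM + 0.5). Counts at 0.5 or 2 times the control used genes with at least 1 CPM in the control of that line. In a leave-one-out fit that leaves 1 library of a condition, that library is assumed to vary like the others. Fits were tested on simulated data.

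Genes named were the 8 highest, those just beside the 10 CPM limit, up to 6 with the largest fall and rise (same sign in both lines) in the 5 main comparisons, up to 4 with the smallest adjusted p or largest change elsewhere, and list members. Genes and lists were chosen with earlier results of these data known. No table of proteins was used: fingers and the KRAB run come from the longest GENCODE release 29 coding sequence, translated, the latter within the first 300 residues. Alternatives were DESeq2 1.42.0, its size factors in edgeR, no filter, mitochondrial scaling, DMSO alone as control and leaving out each library.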

Additional observations from a re-analysis of the deposited data

How the results depend on the processing

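The cause of a moved value was not tested except where an alternative tests fewer libraries. With mitochondrial scaling the genes lower were 102, 3 and 4 at 3, 6 and 12 h of SY200 (7, 0 and 1 before), beside 8.65%, 1.41% and 5.21% of all genes. For V50 they were 252, 226 and 121 (80, 87 and 16), beside 40.7%, 56.1% and 61.6%. At 3 and 6 h of SY200/V50 they were 256 and 268 (123 and 162), beside 45.6% and 74.2%. From 3 to 12 h of SY200/V50 they were 192 (34), and for the difference in that change 238 (106), beside 55.2% and 26.0%. For CDK9 KO, CDK7/9 KO and CDK9-targeted they were 195, 180 and 198 (2, 0 and 4), beside 67.6%, 65.9% and 73.0%. The genes higher were 1 at 12 h of V50 (41) and 0 from 3 to 12 h of SY200/V50 (7), beside 2.00% and 0.825% of all genes. In CDK1 KO, CDK9 KO, CDK7/9 KO and CDK9-targeted they were 0, 0, 0 and 1 (2, 21, 25 and 53), beside 0%, 0.399%, 0.465% and 0.983% of all genes with that scaling. Below 0 with it were, at 12 h of SY200/V50, ZNF358 (−0.92), ZNF219 (−0.95), ZNF428 (−0.97), ZNF580 (−1.16), ZNF185 (−1.20) and ZNF408 (−1.24), against V50 ZNF219 (−0.00062), ZNF532 (−0.164) and ZNF185 (−0.163), and ZNF251 (−0.060) and ZNF862 (−0.025) in CDK9 KO, ZNF224 (−0.060) in CDK7/9 KO and ZNF251 (−0.030) in CDK9-targeted.

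With DESeq2 the counts for SY200 were 24 lower at 3 h, 2 lower at 12 h and 33 higher from 3 to 12 h. Over all genes these shares were 1.40%, 2.96% and 3.46%. DESeq2 gave 129 lower at 3 h of V50 and 12 higher from 3 to 12 h of SY200/V50, beside 5.49% and 11.9% of all genes. The lines had 2 and 10 calls with V50 and SY200/V50, all higher (0.222% and 0.904% of all genes higher), and CDK7/9 KO had 1 lower (5.81%). DESeq2 size factors gave 3 lower at 3 h of SY200 and 0 higher in CDK1 KO, beside 0.190% and 0.292% of all genes. No filter gave 3 lower at 3 h of SY200 and 4 higher from 3 to 12 h of SY200, beside 0.0832% and 0.172% of all genes. It gave 17 lower from 3 to 12 h of SY200/V50, beside 3.39%. In the knockouts it gave 8 higher in CDK1 KO, 5 called in CDK7 KO and 3 lower in CDK7/9 KO, beside 2.44%, 2.93% and 5.39%. DMSO alone gave 1 and 0 lower at 3 and 12 h of SY200, beside 0.117% and 0.0638% of all genes. At 12 h of V50 it gave 9 lower and 18 higher, beside 5.47% and 4.93%.

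Of the counts in single libraries, those at 0.5 or less with mitochondrial scaling were 1 for parental, 16 and 4 for SY200 at 6 and 12 h, 214 and 76 for V50 at 6 and 12 h, and 232 and 254 for SY200/V50 at 3 and 6 h in MDA-MD-231. In MDA-MD-468 they were 168, 40 and 27 for SY200, 241, 191 and 82 for V50 and 246, 256 and 265 for SY200/V50, and in the knockouts 25 and 31 for CDK1 KO and CDK7 KO at 96 h, 3 and 151 for CDK9 KO and 2 and 117 for CDK7/9 KO. Of all genes 66.6% and 57.0% were that low in CDK9 KO and CDK7/9 KO at 96 h, and 8.54% to 94.2% in the treated libraries. The other counts stand without the share of all genes in their own library, so an excess over all genes cannot be read from them. At 2 times or more were 7 and 0 for V50 at 12 h in MDA-MD-231 and MDA-MD-468 and 0 and 0 for SY200/V50. With DMSO alone, SY200 at 6 h left 1 at 0.5 or less and SY200/V50 at 12 h 2 at 2 times or more in MDA-MD-468.

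Leaving out 1 library gave 0 to 8 and 0 to 2 lower at 3 and 12 h of SY200, 3 to 93, 8 to 93 and 0 to 19 lower of V50 with 1 to 48 higher at 12 h, and 14 to 138, 83 to 172 and 110 to 197 lower of SY200/V50. From 3 to 12 h it gave 0 to 16 higher with SY200, 20 to 169 with V50, and 8 to 42 lower and 2 to 16 higher with SY200/V50. SY200/V50 against V50 had 112 to 213 lower, the difference in change 19 to 167 and the lines with SY200/V50 0 to 5. In the knockouts the ranges were 0 to 65 higher for CDK1 KO, 0 to 109 called for CDK7 KO, 0 to 23 lower and 0 to 72 higher for CDK9 KO, 0 to 27 and 0 to 70 for CDK7/9 KO, 0 to 17 and 17 to 93 for CDK9-targeted and 0 to 83 called for CDK7-targeted. Of fits of named genes with a call, 1649 kept it and 119 lost it, and of those without one 4 gained it. Most of these fits left out a library outside the comparison concerned. The numbers thus do not measure how calls hold without a compared library. The counts of fits that left out 1 library, here and above, stand without the share of all genes in the same fit. Whether they moved more than those of all genes was not tested. With 1 library per line, treatment and time, a small change of a gene near 10 CPM may be missed.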
